A study of Homo sapiens with 2 samples.

Results

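The S100 genes encode small calcium-binding proteins, and 10 of them, S100A2, S100A4, S100A6, S100A7, S100A8, S100A9, S100A10, S100A11, S100A14 and S100A16, were taken by symbol from the 30796 genes of the count matrix. All 10 symbols matched an Ensembl identifier of the matrix. The data are single-cell 3′ RNA counts of MDAMB468 and CAL51, established human cell lines that the labels describe as triple-negative breast cancer from breast tissue. Cells were captured by Drop-seq, which lyses each cell in a droplet beside a barcoded bead and tags every captured RNA molecule with a unique molecular identifier (UMI), so that a molecule is counted once. There was 1 library per line, with no treatment named for either, and the labels do not say how many cultures entered a library. No difference below therefore has a replicate check, no p-value is given, and every 95% interval covers counting error only.

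Most S100 proteins work as dimers with paired EF-hand loops, which open on binding calcium and expose a surface that grips annexins, cytoskeletal proteins and other partners. Several are also secreted, and S100A8 and S100A9 form calprotectin, a metal-sequestering antimicrobial complex abundant in neutrophils and in stressed or squamous epithelium. Nearly all genes of the classical S100A series lie in the epidermal differentiation complex on chromosome 1q21, which makes them a common readout of keratinocyte and basal epithelial programmes in breast cancer.

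The MDAMB468 library held 306 barcodes and 5501900 UMIs, with a median of 10016.5 UMIs per barcode. The CAL51 library held 1377 barcodes, of which 31 had a sequence that also occurred in the MDAMB468 library. These shared barcodes held 135240 UMIs, 0.827% of the CAL51 total, and were left out of CAL51, which leaves 1346 barcodes, 16223444 UMIs and a median of 8635 UMIs. Epithelial markers were present in both lines at summed levels of 5200 and 2790 CPM (UMIs scaled to the same total in each line), although CAL51 lacked KRT7, with 0 UMIs, and was low in CDH1, with 7 UMIs. Markers of myeloid cells, the immune cells best known for S100A8 and S100A9, were near 0 in both. The 10 myeloid genes with an entry summed to 1.82 CPM in MDAMB468 and 1.73 CPM in CAL51, none had more than 3 UMIs in MDAMB468 or 10 in CAL51, and PTPRC, LYZ, CSF3R, ELANE, AIF1 and ITGAM had 0 UMIs in MDAMB468. Of 6 lymphoid markers listed, only 2, CD3D and CD79A, had an entry, and neither had more than 2 UMIs in either line. Of the fibroblast markers COL1A2 stood out, with 863 UMIs in CAL51 and 0 in MDAMB468, and of the endothelial markers KDR had 102 UMIs in MDAMB468 and 2 in CAL51.

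All 10 genes lie on chromosome 1. In GENCODE on GRCh38, 17 of the 21 coding S100 family genes lie there within 1649 kb, with S100A10 and S100A11 at one end and the other 8 of the 10 genes between S100A9 (chr1:153357854-153361027) and S100A14 (chr1:153614255-153616986). The proximal promoters are shown for 5 of the genes, a set chosen after the values were seen. In CAL51, S100A7, S100A8 and S100A9 had 0 UMIs, and S100A6 and S100A10 were at 1050 and 293 CPM. Each sequence comes from RefSeq on GRCh38.p14 and covers 250 bases before the transcript start and 50 bases from it, read 5′ to 3′ on the strand of the gene. Capitals mark matches on either strand to TATAAA (the TATA box) or GGGCGG (the GC box). The windows are chr1:153460602-153460901, chr1:153391024-153391323, chr1:153535942-153536241 and chr1:151993810-151994109 on the minus strand and chr1:153357604-153357903 on the plus strand.
S100A7: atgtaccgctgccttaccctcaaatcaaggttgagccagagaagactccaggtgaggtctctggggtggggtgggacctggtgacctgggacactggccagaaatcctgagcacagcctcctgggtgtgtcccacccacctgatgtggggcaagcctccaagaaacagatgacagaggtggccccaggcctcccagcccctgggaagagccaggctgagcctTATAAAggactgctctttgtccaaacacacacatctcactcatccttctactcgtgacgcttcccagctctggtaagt
S100A8: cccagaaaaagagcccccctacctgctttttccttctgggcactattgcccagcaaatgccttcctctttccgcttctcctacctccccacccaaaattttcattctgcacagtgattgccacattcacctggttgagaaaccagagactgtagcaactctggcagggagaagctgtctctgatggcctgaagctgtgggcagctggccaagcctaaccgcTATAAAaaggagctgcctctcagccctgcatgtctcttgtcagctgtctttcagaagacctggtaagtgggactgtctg
S100A9: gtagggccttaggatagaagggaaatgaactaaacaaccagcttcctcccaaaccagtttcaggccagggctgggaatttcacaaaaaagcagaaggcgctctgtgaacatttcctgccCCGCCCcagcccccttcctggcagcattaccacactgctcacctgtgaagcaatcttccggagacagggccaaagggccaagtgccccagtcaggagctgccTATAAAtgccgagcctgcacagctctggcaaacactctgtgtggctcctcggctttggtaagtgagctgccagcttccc
S100A6: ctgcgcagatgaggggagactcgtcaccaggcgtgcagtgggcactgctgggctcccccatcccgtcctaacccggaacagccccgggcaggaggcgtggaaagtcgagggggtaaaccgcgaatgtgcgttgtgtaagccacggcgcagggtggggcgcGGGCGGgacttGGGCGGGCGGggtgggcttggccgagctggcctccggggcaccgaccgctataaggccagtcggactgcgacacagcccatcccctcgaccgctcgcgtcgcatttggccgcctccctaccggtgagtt
S100A10: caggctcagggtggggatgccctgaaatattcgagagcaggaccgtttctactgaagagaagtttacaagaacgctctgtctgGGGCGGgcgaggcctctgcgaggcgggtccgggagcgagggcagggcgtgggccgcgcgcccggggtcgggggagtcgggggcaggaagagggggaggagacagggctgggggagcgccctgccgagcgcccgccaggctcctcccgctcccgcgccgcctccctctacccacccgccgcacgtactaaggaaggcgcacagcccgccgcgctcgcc

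TATAAA began 28 bases before the start in S100A7 and 29 bases before it in both S100A8 and S100A9. Among the windows not printed, that of S100A4, a gene at 252 CPM in CAL51, held TATAAA 31 bases before the start. The remaining 6 of the 10 held none. Of all 34943 RefSeq promoter windows of the same length, 11.57% held TATAAA on either strand. RefSeq lists 3 starts for S100A8, and the middle one was used. The same TATAAA lay 126 bases before the most downstream start and outside the window of the most upstream one. For S100A2 and S100A16, with 2 starts each, the upstream start was used, and the motifs named below differ at the other start. GGGCGG was found in S100A6, with 3 matches that began 90, 79 and 75 bases before the start and overlapped in part, and in S100A10, S100A11 and S100A9, against 44.87% of all windows. An AP-1 motif, TGANTCA, was found in S100A2 alone of the 10, 52 bases before its upstream start, and in 7.724% of all windows. The window of its other start held none. The other start of S100A16 had 8 CpG and a GGGCGG 45 bases before it, against 3 CpG and none at the start used. A C/EBP-like motif, TTGCNNAA, was found in S100A11 alone, against 10.47% of all windows. The CpG content set S100A6, S100A10 and S100A11 apart, with 31, 32 and 22 CpG in 300 bases, from the other 7 genes, which had 2 to 8. The median of all windows was 14 CpG. S100A6, S100A11 and S100A10 were also the 3 highest of the 10 genes in CAL51, but S100A4, with 8 CpG, was near S100A10 there (252 and 293 CPM). In MDAMB468 the highest was S100A2, with 5 CpG at the start used. A link between CpG content and level was not tested. These matches and counts describe letters in the windows, and binding or methylation was not measured.

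Between the lines, the 10 genes together were more abundant in MDAMB468, with S100A2, S100A14 and the genes of calprotectin and psoriasin (S100A7) furthest apart. They summed to 7133 CPM in MDAMB468 and 2150 CPM in CAL51, 3.32-fold higher (interval 3.27 to 3.37), or 0.713% and 0.215% of all UMIs. S100A2 supplied 31.0% of these UMIs in MDAMB468, and S100A6 supplied 48.8% of them in CAL51. By a line difference of at least 2-fold in log2(CPM + 1), 8 of the 10 were higher in MDAMB468 and 0 lower. Of the 15347 genes with at least 20 UMIs over both lines, 15.8% were higher in MDAMB468 by this measure and 18.6% lower. The median log2 difference was 3.86 over the 10 genes, or 4.29 with the genes at 0 in CAL51 set to their lower bounds, and -0.13 over all genes compared. Fewer cells that express a gene and less RNA per cell cannot be told apart in these sums.

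**Figure D1:**
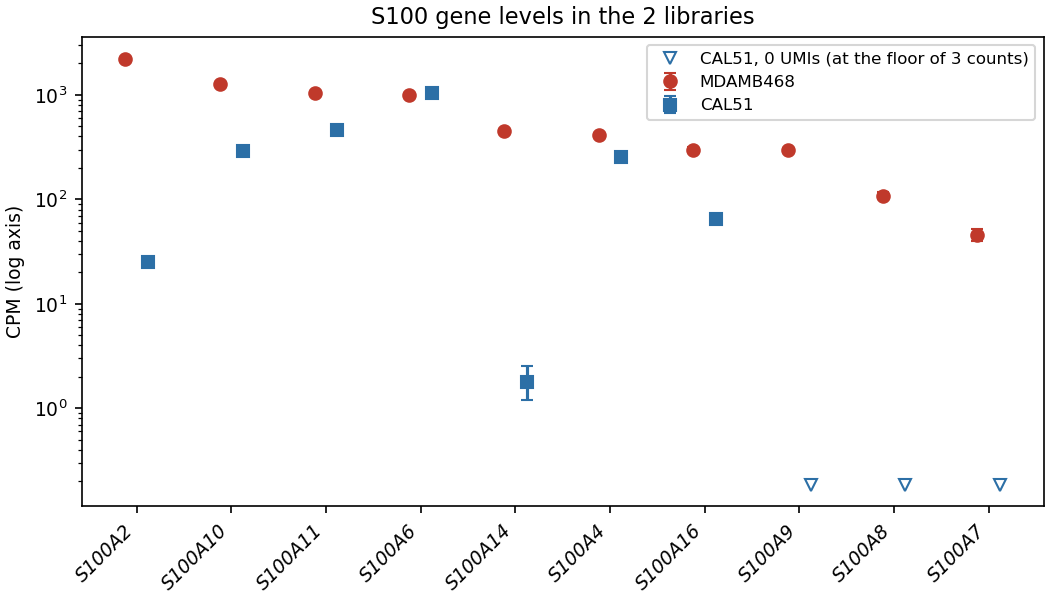
CPM (log axis) of the 10 S100 genes in the MDAMB468 library (circles) and the CAL51 library (squares), ordered by the MDAMB468 level, with exact 95% Poisson intervals. Open triangles mark the floor of 3 counts, 0.185 CPM, for the 3 genes with 0 UMIs in CAL51, and S100A6 is the only gene whose symbols lie at nearly the same height.

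S100A7, S100A8 and S100A9, the secreted antimicrobial and inflammatory members, were read in MDAMB468 and, outside the shared barcodes, had no UMI in CAL51. S100A9 was counted 1642 times in MDAMB468 (298 CPM, interval 284 to 313), against 0 in the 1346 CAL51 barcodes. Against a floor of 3 counts in CAL51 it was at least 1614-fold higher in MDAMB468. S100A8, its calprotectin partner, had 597 UMIs (109 CPM, interval 99.98 to 118) against 0, at least 587-fold higher. S100A7, or psoriasin, a protein named for its abundance in psoriatic skin, had 251 UMIs (45.6 CPM, interval 40.2 to 51.6) against 0, at least 247-fold higher. Their log2 differences of 8.23, 6.77 and 5.54 depend on the pseudocount of 1 CPM. With the 31 shared barcodes kept in CAL51, these differences were 6.66, 6.39 and 5.38. S100A7 has a close paralog, S100A7A, read at 5 UMIs in MDAMB468 and 0 in CAL51, and the division of reads between them is uncertain. S100A12, the other calgranulin of the band and a neutrophil gene, had 2 UMIs in MDAMB468 and 0 in CAL51.

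S100A2 and S100A14, genes associated with basal and stratified epithelium, were abundant in MDAMB468 and low but present in CAL51. S100A2, a largely nuclear S100 protein reported as a target of p53 family factors, was counted 12171 times in MDAMB468 (2212 CPM, interval 2173 to 2252) against 407 times in CAL51 (25.1 CPM, 22.7 to 27.6). This is an 88.2-fold difference (interval 79.9 to 97.6), and its MDAMB468 level ranked 58 among the compared genes. S100A14 was counted 2475 times (450 CPM, interval 432 to 468) against 29 times (1.79 CPM, 1.20 to 2.57), a 252-fold difference (interval 175 to 377). With the shared barcodes kept, the log2 difference of S100A2 went from 6.41 to 5.97 and that of S100A14 from 7.34 to 6.26.

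S100A10, S100A11 and S100A16, which are expressed in many tissues, were present in both lines and higher in MDAMB468. S100A10, the p11 subunit that joins annexin A2 in a tetramer and does not need calcium for it, had 6931 UMIs in MDAMB468 (1260 CPM) and 4754 in CAL51 (293 CPM), 4.30-fold higher (interval 4.14 to 4.46). S100A16 had 1650 UMIs (300 CPM) and 1062 UMIs (65.5 CPM), 4.58-fold higher (interval 4.24 to 4.95). S100A11, a partner of annexin A1 and of membrane repair proteins, had 5686 UMIs (1033 CPM) and 7516 UMIs (463 CPM), 2.23-fold higher (interval 2.15 to 2.31). S100A11 was the called gene nearest to the threshold, with a log2 difference of 1.16 that became 1.02 with TMM scaling and 1.01 with median-of-ratios scaling.

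S100A4 and S100A6, which are linked to motile and mesenchymal cells, did not pass the 2-fold threshold. S100A4, a binder of non-muscle myosin, was counted 2297 times in MDAMB468 (417 CPM, interval 401 to 435) against 4091 times in CAL51 (252 CPM, 244 to 260), a ratio of 1.66 (interval 1.57 to 1.74). Its annotation overlaps S100A3 on the same strand, so reads there may have been divided between them. S100A6, or calcyclin, was counted 5547 times in MDAMB468 (1008 CPM, interval 982 to 1035) against 17029 times in CAL51 (1050 CPM, 1034 to 1066). The log2 difference was -0.06, and between -0.20 and 0.04 under the scalings tried, so it has no stable sign. In MDAMB468 the order of UMI levels, which count 3′ ends and need no length correction, was S100A2, S100A10, S100A11, S100A6, S100A14, S100A4, S100A16, S100A9, S100A8 and S100A7. The counting intervals of S100A11 and S100A6, of S100A14 and S100A4, and of S100A16 and S100A9 overlapped.

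The other classical S100 genes were low, apart from S100A13. S100A13, a gene involved in the release of growth factors without a signal peptide, had 1081 UMIs in MDAMB468 (196 CPM) and 2622 in CAL51 (162 CPM), with a log2 difference of 0.28. Of the 10 genes on this list, 9 had an entry and 5 reached 20 UMIs, of which 2 were higher in MDAMB468, 2 were lower and 1 was neither. The shares over all genes compared were 15.8% higher and 18.6% lower. S100A3 was highest, with 85 UMIs in MDAMB468 and 25 in CAL51, a 10.03-fold difference (6.35 to 16.3). S100P, a gene outside chromosome 1 known from carcinomas, had 44 and 24 UMIs, 5.41-fold higher (interval 3.22 to 9.29). S100A1, a gene of muscle, was lowest, with 6 and 104 UMIs, and S100Z had 0 and 37 UMIs. The fused-type S100 genes of the band carry an S100 domain in a large structural protein of skin or hair. Of 7 listed, FLG, FLG2, HRNR and TCHHL1 had no entry in the matrix, and the 3 with an entry were low. Only TCHH reached 20 UMIs, with 21 and 41 UMIs and a log2 difference of 0.45. Of the 12 cornified envelope genes that lie among the S100 genes, none had an entry in the matrix.

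Along the chromosome the differences were not spread evenly. Of 13 S100A genes of the region with at least 20 UMIs, 9 were higher in MDAMB468 and 1 lower, with a median log2 difference of 2.18. The 13 include all 10 genes of this report, which were chosen with earlier results of these data known. Their contrast with the neighbours is therefore in part set by that choice. Of the others, S100A3 was higher (2.69), S100A13 was neither (0.28) and S100A1 was lower (-1.83). The 28 other genes with as many UMIs of the region comprised 5 higher and 0 lower, with a median of 0.53 and a range from -0.36 to 1.74. Of all 15347 genes compared, 15.8% were higher and 18.6% lower. Among 20 flanking genes listed by name, 1 was higher, SLC27A3 (36 and 29 UMIs, log2 difference 1.44), UBAP2L was lowest at -0.36, and the median was 0.47. S100A14 and S100A13 are neighbours, and their log2 differences were 7.34 and 0.28.

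**Figure D2:**
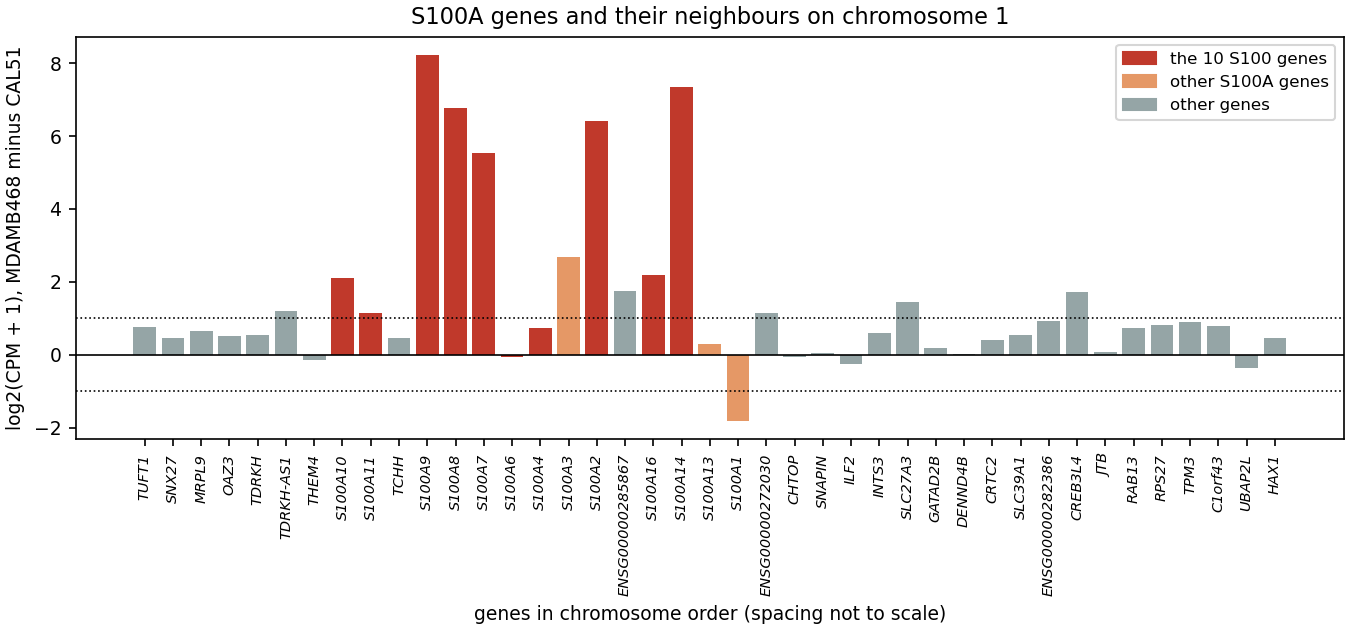
Log2 difference of CPM + 1, MDAMB468 minus CAL51, for genes with at least 20 UMIs in the S100 region of chromosome 1 and its flanks, in chromosome order with spacing not to scale. Dark bars are the 10 S100 genes, light bars other S100A genes and grey bars other genes, and dotted lines mark a 2-fold difference. The grey bars stay between -0.36 and 1.74, while 5 of the 10 S100 genes exceed 5.

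Partners and associated genes of the S100 proteins were read from lists, whose counts stand beside 15.8% higher and 18.6% lower among all 15347 genes compared. Of 9 annexins with at least 20 UMIs, 1 was higher in MDAMB468 (ANXA8, 186 and 2 UMIs, log2 difference 4.95), 2 were lower (ANXA6, -2.29, and ANXA4, -1.73) and 6 were neither. ANXA2, the partner of S100A10, was at 1044 CPM in MDAMB468 and 886 CPM in CAL51, with a log2 difference of 0.24. ANXA1, the partner of S100A11, was at 304 and 202 CPM, with a log2 difference of 0.58. Of 6 such surface receptors reported for secreted S100 proteins, EGFR was higher (5.14), BSG, a receptor reported for S100A9, was lower (-1.49) and 4 were neither. AGER, which encodes the receptor RAGE, had 17 and 40 UMIs, and TLR4, the other main calprotectin receptor, had no entry. Among 10 such intracellular partners none was higher and 2 were lower, from TPM3 (0.90) to TPM1 (-1.54). MYH9, the myosin bound by S100A4, had a log2 difference of 0.23, and CACYBP, which binds S100A6, one of 0.14.

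Epithelial antimicrobial and secretory genes stood with S100A7, S100A8 and S100A9 in MDAMB468. All 8 with at least 20 UMIs were higher there, with a median log2 difference of 3.93, from PI3, which encodes the protease inhibitor elafin (944 and 0 UMIs), to CXCL8 (17 and 6 UMIs). LCN2, or lipocalin, which withholds iron from bacteria, had 264 and 0 UMIs, and DEFB1, a beta-defensin, had 645 and 119 UMIs. LTF and CXCL1 had 0 UMIs in MDAMB468. The basal keratinocyte markers were likewise higher in 7 of 7 with enough UMIs, with a median of 5.03 (5.33 with genes at 0 set to their bounds), from KRT5 (2224 and 0 UMIs) to SFN (991 and 210 UMIs). Of 7 epithelial markers 5 were higher, KRT7 furthest, and KRT18 was lower. Of 11 other EF-hand genes compared, 1 was higher, CALML5 (1301 and 0 UMIs), a calmodulin-like gene of keratinocytes, and 4 were lower, RCN2 furthest at -2.19. Of 13 compared transcription factors reported to act on S100 genes, 8 were higher and 1 lower. For every list of this paragraph, the shares over all genes compared were 15.8% higher and 18.6% lower. GRHL2, an epithelial factor, was highest (212 and 2 UMIs, 5.14) and KLF5 lowest (171 and 2043 UMIs, -1.98). TP63, which encodes the p53 family factor of basal cells, had 7 UMIs in MDAMB468 and 0 in CAL51, too few to be compared. With TMM or median-of-ratios scaling, 3 annexins and 3 intracellular partners were lower in MDAMB468 and 7 of these factors higher. Over all genes compared, 14.4% were then higher and 21.7% lower with TMM, and 14.2% and 22% with median of ratios. With mitochondrial and ribosomal protein genes left out of the total, 6 of the 28 genes beside the S100 genes were higher. The shares over all genes were then 17.8% higher and 17.1% lower.

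Within each line, the spread between cells was read after every barcode had been thinned at random to 2500 UMIs, a depth that all barcodes reached. Barcodes shared between the libraries, and satellite barcodes, whose sequence is 1 base away from that of a barcode at least 5 times as deep in the same library, were omitted. This left 242 MDAMB468 and 1339 CAL51 barcodes, with median depths of 14828.5 and 8660 UMIs before thinning. The barcodes of a line share 1 library, so all values over barcodes are descriptions of that library. Each line is labelled as its own library, with no other cell type named that could show how many UMIs come from free RNA. The part of free RNA in the shares of barcodes was not tested.

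S100A2 was found in nearly every MDAMB468 barcode. At equal depth it had 0 UMIs in the lowest barcode, a median of 5 and 16 in the highest, and 235 of 242 barcodes (97.1%, Clopper-Pearson interval 94.1% to 98.8%) had at least 1. In CAL51, 85 of 1339 barcodes (6.35%, interval 5.10% to 7.79%) had a UMI, and none had more than 3. S100A10, S100A11 and S100A6 were also widespread in MDAMB468, in 225, 223 and 212 of the 242 barcodes. In CAL51 S100A6 was the most widespread of the genes, in 1101 of 1339 barcodes (82.2%, interval 80.1% to 84.2%), followed by S100A11 in 840, S100A4 in 544, S100A10 in 540 and S100A16 in 197. S100A14 was found in 150 of 242 MDAMB468 barcodes (62.0%, interval 55.5% to 68.1%) and in 13 of 1339 CAL51 barcodes (0.971%, interval 0.518% to 1.65%). S100A4 was found in 138 and S100A16 in 110 of the MDAMB468 barcodes. S100A9 was found in 93 (38.4%), S100A8 in 44 (18.2%) and S100A7 in 11 (4.55%). These 3 genes had 0 of 1339 barcodes with a UMI in CAL51, which by the same floor of 3 counts allows a share of up to 0.224% of barcodes with a UMI at this depth and sets no limit on cells expressing the genes below it. At full depth the MDAMB468 shares were 77.7% for S100A9, 42.6% for S100A8 and 11.98% for S100A7, and from 85.5% for S100A16 to 100% for S100A10 among the other 7 genes. In CAL51 they were 96.5% for S100A6, 90.4% for S100A11, 73.9% for S100A4, 67.5% for S100A10, 41.4% for S100A16, 22.2% for S100A2 and 1.87% for S100A14.

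**Figure D3:**
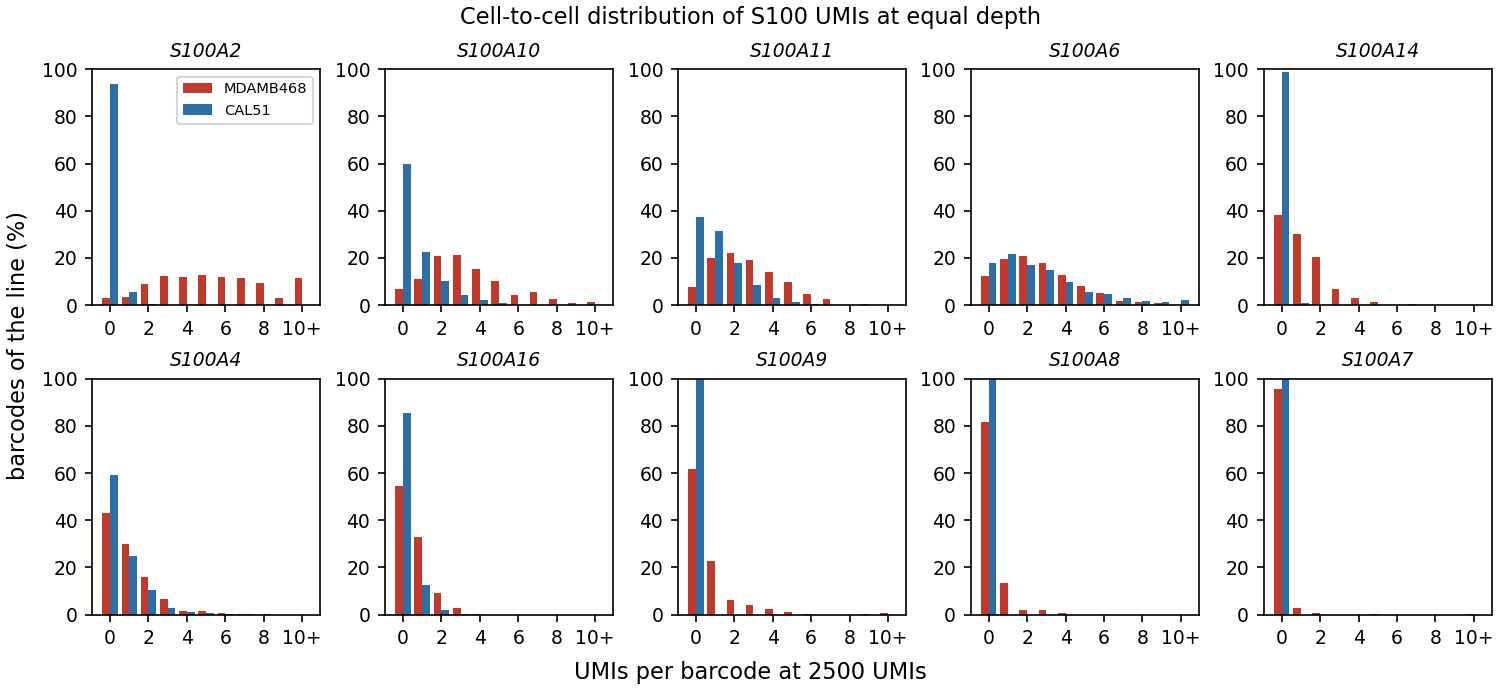
Share of barcodes (%) by UMI count per barcode at 2500 UMIs, for each of the 10 S100 genes in 242 MDAMB468 barcodes (dark red) and 1339 CAL51 barcodes (blue), with counts of 10 or more pooled. S100A2 spreads from 0 to 16 UMIs in MDAMB468 but is at 0 in most CAL51 barcodes, and S100A7, S100A8 and S100A9 are at 0 in every CAL51 barcode.

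Spread between cells beyond counting was seen for some genes in each line. The Fano factor, variance over mean, is about 1 where counting alone sets the spread. It was at least 1.5 for 5 of the 10 genes in MDAMB468 and for 3 of the 5 with a mean of at least 0.1 UMIs in CAL51. Of all genes with such a mean, 2.1% reached this value in MDAMB468 (81 of 3850) and 2.86% in CAL51 (122 of 4267). In MDAMB468 the 5 were S100A7 (9.16), S100A9 (3.07), S100A2 (1.76), S100A8 (1.72) and S100A4 (1.56). Means over 20 draws of the thinning were 8.74, 2.53, 1.84, 2.56 and 1.56 for the same genes, and over single draws between 4 and 6 genes passed. In CAL51 the 3 were S100A6 (2.58), S100A10 (1.84) and S100A4 (1.66), with 20-draw means of 2.55, 1.82 and 1.57. At equal relative spread the Fano factor is larger for abundant genes, so (Fano - 1)/mean was also taken. In MDAMB468 it was 0.13 for S100A2, the same as the median of 0.13 over all 3850 genes. It was 0.53 for S100A4, 2.62 for S100A9, 2.69 for S100A8 and 61.7 for S100A7. In CAL51 it was 0.58 for S100A6, 0.99 for S100A4 and 1.17 for S100A10, against a median of 0.22. S100A6 was at the same mean level in both lines at this depth, 2.65 and 2.72 UMIs per barcode, yet its Fano factor was 1.42 in the former and 2.58 in the latter, and the ranges over 20 draws (1.25 to 1.62 and 2.36 to 2.73) did not overlap. S100A10 likewise had 1.37 and 1.84, with ranges of 1.04 to 1.39 and 1.69 to 1.94, at means of 3.33 and 0.72 UMIs. The draws thin the same barcodes again, so their ranges cover the random thinning only and not the sampling of cells or cultures. Whether these spreads differ between the lines could not be tested with 1 library each. S100A11, S100A14 and S100A16 had Fano factors of 1.15, 1.30 and 1.05 in MDAMB468, values that 22.4%, 6.39% and 52.1% of all genes reached. At 5000 UMIs, over the 208 barcodes that deep, they were 1.63, 1.30 and 1.11.

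S100A7 was concentrated in few MDAMB468 cells. At full depth 29 of the 242 barcodes had any S100A7 UMI, and 10 of them held 221 of the 249 UMIs (88.8%). A single barcode of 18169 UMIs held 103 of them (41.4%), along with 27 UMIs of S100A8 and 58 of S100A9. Without this barcode the Fano factor of S100A7 at equal depth was 2.44, its mean fell below the minimum of 0.1 UMIs, and its log2 difference between the lines was 4.81 in place of 5.54.

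S100A7, S100A8 and S100A9 occurred together in the same MDAMB468 barcodes. Of all pairs among the 10 genes, 3 of 45 had a Pearson r of at least 0.3 over the 242 barcodes, and these were the 3 pairs of this trio. Among all 7409325 pairs of genes with the same minimum mean, 0.00431% reached this value. The r values of log2(UMIs + 1) were 0.45 for S100A8 and S100A9, 0.42 for S100A7 and S100A9 and 0.41 for S100A7 and S100A8. Over 20 draws of the thinning they averaged 0.43 (0.31 to 0.52), 0.33 (0.26 to 0.42) and 0.41 (0.25 to 0.47). Leaving out the barcode with most S100A7 gave 0.42, 0.35 and 0.37. Since S100A7 then missed the minimum mean, 1 of 36 pairs counted. Spearman correlation over all 242 barcodes gave 0.39, 0.32 and 0.29 for the 3 pairs in the same order, so 2 of 45 pairs reached 0.3. All barcodes had the same depth here, and r with the depth before thinning was 0.04 for S100A7, 0.01 for S100A8 and -0.03 for S100A9.

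Counted by cell, 136 of the 242 barcodes had none of the trio, 71 had 1, 28 had 2 and 7 had all 3. These 7 barcodes held 28.1% of the UMIs of the trio. Of the 11 barcodes with S100A7, 10 had S100A9 and 7 had S100A8, whereas of the 231 without it 83 had S100A9 and 37 had S100A8. S100A9 was found in 32 of 44 barcodes with S100A8 and in 61 of 198 without it. S100A2 averaged 5.19 UMIs in barcodes with S100A9 and 5.88 in those without, S100A14 averaged 1.11 and 1.13, and S100A11 averaged 2.84 and 2.69. S100A10 averaged 3.23 and 3.40 by S100A9, but 1.73 in the 11 barcodes with S100A7 and 3.41 in the 231 without, and its r with S100A7 was -0.21, with a mean of -0.09 over 20 draws (-0.20 to 0.01). The r of S100A2 and S100A9 was -0.14, with a mean of -0.19 over 20 draws (-0.28 to -0.12), the lowest mean of the 45 pairs.

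**Figure D4:**
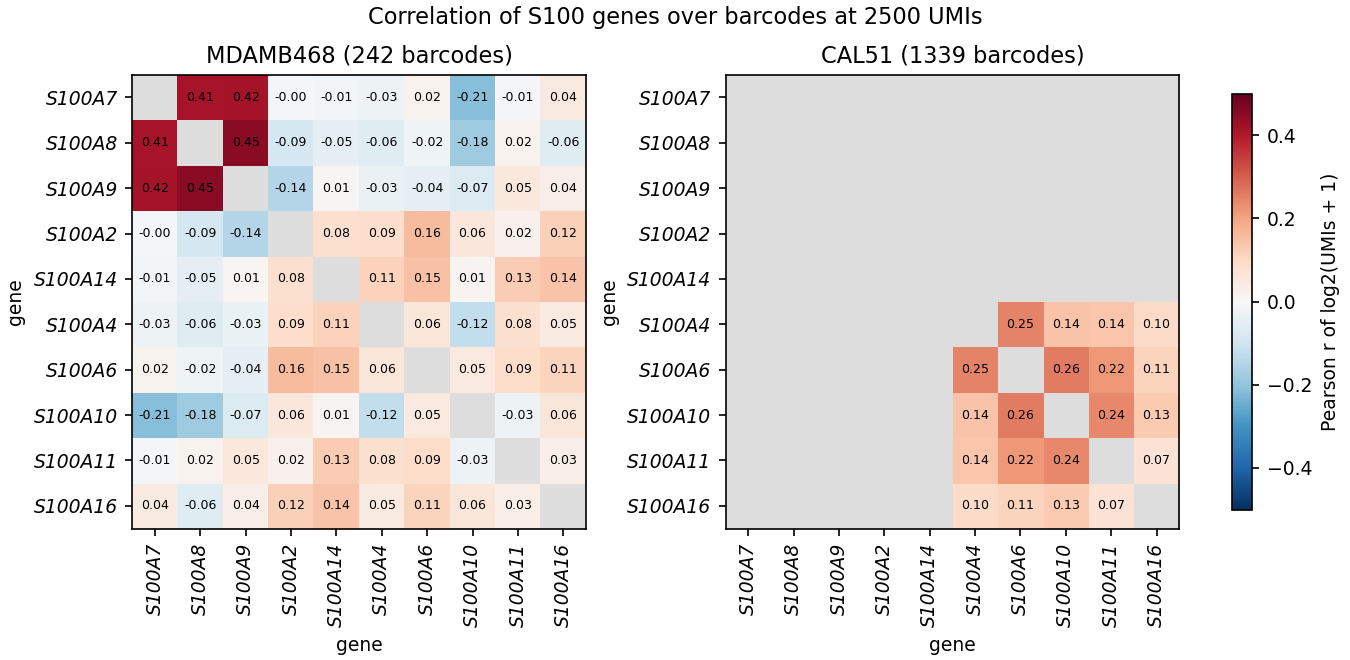
Pearson r of log2(UMIs + 1) between S100 genes over barcodes at 2500 UMIs, in MDAMB468 (left, 242 barcodes) and CAL51 (right, 1339 barcodes), with grey for genes with a mean under 0.1 UMIs and for the diagonal. The block of S100A7, S100A8 and S100A9 stands at 0.41 to 0.45 in MDAMB468, and all 10 CAL51 pairs are positive but at most 0.26.

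In CAL51 no pair reached an r of 0.3, among 10 pairs of the 5 genes with sufficient counts, against 0.000352% of all 9101511 gene pairs. All 10 were positive, from 0.07 to 0.26, with a median of 0.14, while 49.7% of all gene pairs were positive. The highest were S100A6 with S100A10 (0.26) and S100A4 with S100A6 (0.25), and over 20 draws their means were 0.24 and 0.26. In MDAMB468 the same 2 pairs had r values of 0.05 and 0.06. Correlations of this size in sparse counts are given as values only.

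Genes most like each S100 gene over cells were sought among genes with a mean of at least 0.2 UMIs, leaving out mitochondrial and ribosomal protein genes. S100A2 in MDAMB468 had KRT5, the basal keratin, as its closest gene (r = 0.35, mean over 20 draws 0.23, range 0.14 to 0.32), followed by LGALS1 (0.29, mean 0.17) and SAT1 (0.23, mean 0.15). KRT5 was the only one of 2016 genes at or above 0.3 with S100A2. KRT5 and S100A9 had a mean r of -0.14 over the 20 draws (-0.22 to -0.09). DEFB1 was closest to S100A9 (0.22, mean 0.21, range 0.11 to 0.33), and ST13 was also among its closest genes (0.20, mean 0.02). Among secretory genes picked out after their values were seen, LCN2 had a mean r of 0.15 with S100A9, PI3 one of 0.05 and SLPI one of 0.02. The closest genes of S100A4, S100A8, S100A10, S100A11 and S100A14 in MDAMB468 had r values of 0.18 to 0.23 in the draw used and averaged from -0.01 to 0.08 over 20 draws, so none is singled out. S100A16 was closest to KRT8 (0.21, mean 0.13), PRDX5 and GNG5, and S100A6, apart from an unnamed gene, to SAT1 and LGALS1 (0.20 and 0.19, means 0.10 and 0.14).

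In CAL51 S100A6 was closest to COX6C, a subunit of cytochrome oxidase (r = 0.26, mean over 20 draws 0.23), FTH1, the ferritin heavy chain (0.24, mean 0.21), and GSTP1 (0.21, mean 0.20). COX6C was also the closest gene of S100A10 (0.22) and S100A4 (0.16), and FTH1 that of S100A11 (0.23). The remaining genes named by the rule were CD24 and PLAAT3 for S100A10 (0.21 and 0.20), CD24 and IGFBP3 for S100A4 (0.14 and 0.14) and GSTP1 and ASRGL1 for S100A11 (0.20 and 0.16). None of 2356 genes reached 0.3 with any of these S100 genes. S100A10 and ANXA2, whose products form 1 complex, had r values of -0.04 in MDAMB468 and 0.17 in CAL51 in the draw used, and means of 0.10 (0.05 to 0.23) and 0.15 (0.11 to 0.19) over 20 further draws, whose MDAMB468 range does not hold the value of the draw used. S100A11 and ANXA1 had -0.03 and 0.05, with means of 0.04 and 0.05.

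Barcodes were divided into 4 groups of equal size by their summed G2 and M phase genes, and several S100 genes were lower where those genes were high. In MDAMB468 S100A2 averaged 6.52, 6.05, 5.41 and 4.47 UMIs per barcode from the lowest to the highest group. S100A10 averaged 3.79, 3.83, 2.90 and 2.82 over the same groups. In CAL51 S100A6 averaged 3.61, 2.64, 2.36 and 2.27, and S100A10 averaged 0.96, 0.70, 0.65 and 0.57. S100A8 and S100A9 in MDAMB468 did not run downward over the groups, with S100A9 at 0.89, 0.62, 0.61 and 1.05. S100A4, S100A6 and S100A11 in MDAMB468 did not fall at every step, with S100A4 at 1.23, 0.83, 1.23 and 0.88. Each of them was lower in the last group than in the first. S100A16 in CAL51 averaged 0.18, 0.16, 0.21 and 0.13. Over 20 draws, r with the summed genes averaged -0.21 for S100A2 and -0.01 for S100A9 in MDAMB468, and -0.20 for S100A6 in CAL51 (-0.24 to -0.18). The summed G2 and M phase genes themselves went from 4.66 to 40.4 UMIs of the 2500 in MDAMB468, and from 11.7 to 48.3 in CAL51. Between the lines, 0 of these 52 genes were higher in MDAMB468 and 5 lower (9 with TMM scaling), and of 42 S phase genes 0 were higher and 14 lower. Of all genes compared, 15.8% were higher and 18.6% lower (21.7% lower with TMM scaling).

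**Figure D5:**
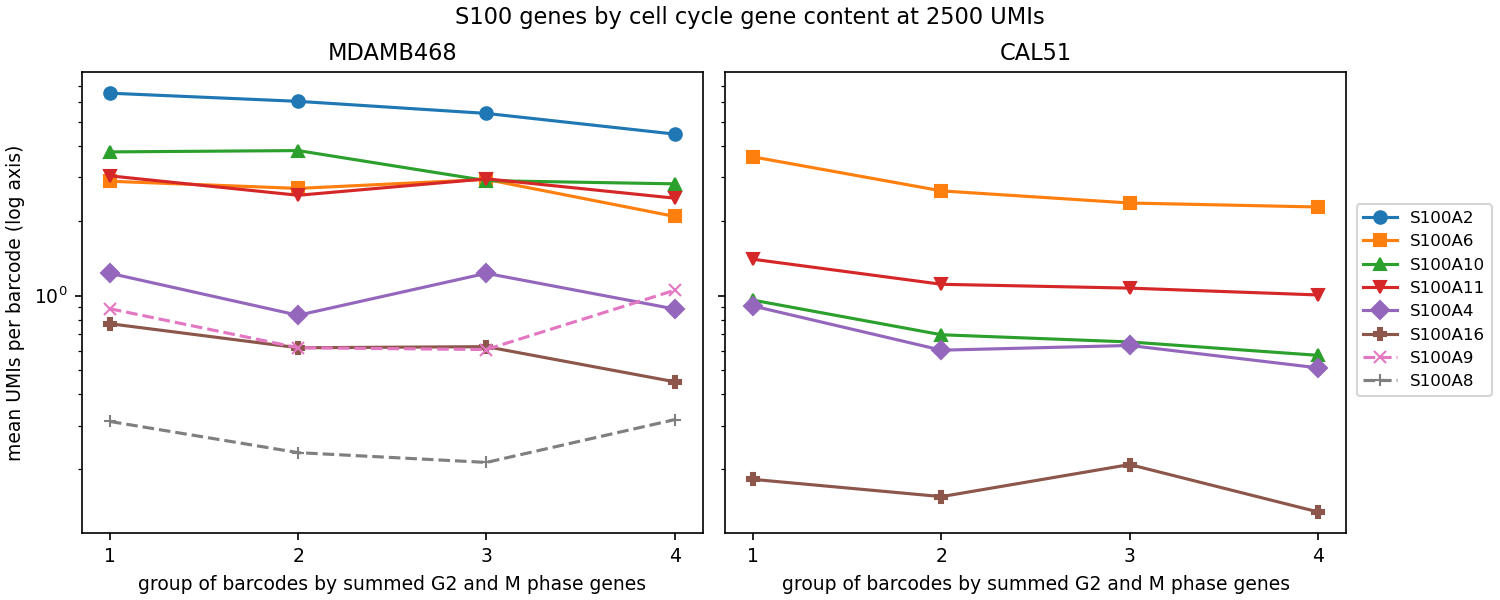
Mean UMIs per barcode at 2500 UMIs (log axis) of S100 genes in 4 equal groups of the barcodes ordered by summed G2 and M phase genes, in MDAMB468 (left) and CAL51 (right), for genes with at least 0.1 UMIs in every group among the 8 plotted. S100A2 goes from 6.52 to 4.47 in MDAMB468 and S100A6 from 3.61 to 2.27 in CAL51, while S100A9 (dashed) ends at 1.05.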

How the data were processed

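Drop-seq 3′ libraries of MDAMB468 and CAL51, 1 per line, were analysed. The authors deposited 1 matrix of UMI counts for genes and barcodes, whose whole numbers show no normalisation, and the barcode names give the line. Per the submitters' processing notes STARsolo was used. Not given in the sources used here: its version, the genome build, the annotation, the strand setting, the treatment of reads that map to several places, and how barcodes were selected. The 10 genes and all lists were chosen with earlier results of these data known.

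UMIs were summed per line and scaled to CPM. Symbols were found for 30730 of 30796 identifiers, and GENCODE positions for 29416. Genes with at least 20 UMIs over both lines were compared with a 2-fold difference in log2(CPM + 1), a scale that understates the difference of low genes. Sums carry exact 95% Poisson intervals, ratios exact intervals conditional on the total and shares Clopper-Pearson intervals. Genes at 0, and shares of 0, were set against a floor of 3 counts in place of an interval. For values per barcode, shared barcodes (31) and satellites (64 in MDAMB468, 7 in CAL51) were left out and counts were thinned to 2500 UMIs without replacement, which removed no barcode for depth. Doublets were not removed. Named genes were the highest and lowest line difference of each list and the 3 highest correlations of each gene with a mean of at least 0.2 UMIs. Of these, 1 gene is not reported here. Other genes were picked out after their values were seen. The promoter start used where RefSeq lists several, and the set of promoters printed, were also chosen after the data had been seen. The scripts were tested on simulated data. Computation relied on scipy 1.17.1 and numpy 2.4.6 under Python 3.11.15. TMM factors came from edgeR 4.0.16.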

Additional observations from a re-analysis of the deposited data

Results flagged for a closer look

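Signal for 9 of the 10 S100 genes was higher, with intervals that did not overlap, in data that the comparison of the lines did not use, the 31 CAL51-labelled barcodes whose sequence also occurs in the MDAMB468 library. S100A2 stood at 1154 CPM there on 156 UMIs, against 25.1 CPM in the other CAL51 barcodes. S100A14 stood at 377 CPM on 51 UMIs, against 1.79 CPM. S100A9 stood at 237 CPM on 32 UMIs, S100A8 at 37 CPM on 5 UMIs and S100A7 at 14.8 CPM on 2 UMIs, each against 0 UMIs in the other CAL51 barcodes. S100A11 stood at 1797 CPM against 463 CPM, S100A10 at 969 CPM against 293 CPM, S100A4 at 451 CPM against 252 CPM and S100A16 at 333 CPM against 65.5 CPM. S100A6 stood at 969 CPM against 1050 CPM. In the MDAMB468 library S100A2 stood at 2212 CPM, S100A14 at 450, S100A9 at 298, S100A8 at 109 and S100A7 at 45.6. S100A11 stood at 1033 CPM there, S100A10 at 1260, S100A4 at 417, S100A16 at 300 and S100A6 at 1008. The signal was not particular to S100 genes, since KRT19 stood at 2566 CPM in these barcodes against 30.6 CPM, KRT7 at 784 CPM and KRT5 at 296 CPM, the last 2 against 0 UMIs. Not every keratin was higher there. KRT8 stood at 673 CPM against 919 CPM in the other CAL51 barcodes, and KRT18 at 1501 CPM against 1555 CPM. These keratins were picked out after their values were seen. The 9 S100 genes were picked out by a rule chosen after their values were seen, an interval wholly above that of the other CAL51 barcodes. The share of all genes that meet this rule was not computed, and the source of the signal was not tested.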

How the results depend on the processing

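With 1 library per line, nothing here measures variation between cultures, and intervals cover counting error only. The numbers of S100 genes called between the lines, 8 higher and 0 lower, were the same in 9 of the 10 alternatives run. Over these 9, the shares of all genes compared ran from 6.82% to 18.4% higher and from 7.47% to 22% lower. With a 4-fold threshold the numbers were 7 and 0, and S100A11 was not called. Of all genes, 7.38% were higher and 5.84% lower by that threshold. Of 80 alternative values of the log2 differences, 47 stayed within the counting interval, 33 moved beyond it and 0 of the called ones changed sign. The widest ranges came from the pseudocount for genes at 0 in CAL51, such as S100A9 from 4.95 at 10 CPM to 11.54 at 0.1 CPM. TMM and median-of-ratios scaling shifted the median of all genes by -0.12 and -0.13.

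Cell-level counts moved with the depth of thinning and with the random draw. The shares over all genes and gene pairs under these alternatives were not computed. Thinning to 1000 UMIs left 3 genes with a high Fano factor and 0 correlated pairs in MDAMB468, and 1 such gene in CAL51. There S100A7 missed the minimum mean, with r values of 0.33 with S100A9 and 0.34 with S100A8, and the r of S100A8 and S100A9 was 0.25. Thinning to 5000 UMIs, which also left out shallower barcodes (208 MDAMB468 and 1069 CAL51 barcodes remained), gave 8 such genes in MDAMB468 and 2 correlated pairs in CAL51. A Fano threshold of 2 gave 2 genes in MDAMB468 and 1 in CAL51, and a threshold of r = 0.2 gave 4 pairs in CAL51. Spearman in place of Pearson correlation gave 2 pairs in MDAMB468, without S100A7 and S100A8, and 0 in CAL51. Leaving out the barcode with most S100A7, an alternative chosen after seeing the data, gave 1 pair in MDAMB468. The first draw made, with 1 random stream for all barcodes, had given 3 genes and 1 pair in MDAMB468. It was replaced, after its values had been seen, by a stream per barcode, so that leaving out a barcode does not redraw the others. In that first draw S100A7 missed the minimum mean and S100A4 the threshold, while the r of S100A8 and S100A9 was 0.45. The means over 20 further draws, also chosen after seeing the data, gave 5 genes and 3 pairs in MDAMB468 (4 to 6 and 1 to 3 in single draws) and 3 genes and 0 pairs in CAL51. No paired analysis was possible because each line has 1 library.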
